A study of Mus musculus with 12 samples.

Results

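Voltage-gated sodium channels open when a membrane depolarises and carry the upstroke of the action potential. Each channel is a large pore-forming alpha subunit with smaller beta subunits that set its gating and its place in the membrane. Sensory neurons of the dorsal root ganglion (DRG) use a mixture of these channels, some blocked by tetrodotoxin and some resistant to it, and several are studied as targets in pain and in nerve injury.

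The 9 genes described here were taken by name from a table of 44345 gene names. They are 7 alpha genes, Scn1a, Scn3a, Scn8a, Scn9a, Scn10a, Scn11a and Scn7a, and 2 beta genes, Scn2b and Scn4b. All 9 passed the filter on low counts that 16238 genes passed. RNA of whole sciatic L4-L6 DRG was sequenced in 12 samples of C57BL/6 mice aged 5 to 8 weeks, with 3 samples in each of 4 groups. Mice spent 10 days in standard housing (SH) or in environmental enrichment (EE), then had sham surgery, in which the sciatic nerve was exposed and left whole, or sciatic nerve axotomy (SNA), and ganglia were taken 24 h later. The 2 sham groups are named SH Sham and EE Sham, and the 2 groups with axotomy SH SNA and EE + SNA. A sample pools 2 mice, so 6 mice make up a group. A whole ganglion holds neurons with and without an axon in the cut nerve beside glia and other cells, so fewer cells of a type and less RNA per cell cannot be told apart.

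Libraries held from 11343579 to 22871460 reads on genes, and the 9 genes took from 0.198 to 0.286% of them. Atf3, a transcription factor gene induced in axotomised neurons, lay at 110 to 168 CPM, the reads of a gene scaled to the size of its library, in the 6 sham samples and at 454 to 549 CPM in the 6 SNA samples, so the surgery labels held in every sample. The study draws the EE Sham libraries from an earlier dataset and the labels give no batch. A batch and EE therefore cannot be told apart in EE Sham against SH Sham, nor a batch and SNA in EE + SNA against EE Sham, and it could enter the results over both housings and the interaction. SH SNA against SH Sham, EE + SNA against SH Sham and EE + SNA against SH SNA do not use those libraries. The paper sets each condition against its respective SH Sham, however. The labels do not say to which dataset the SH Sham libraries belong. A batch could therefore also enter the comparisons of SNA groups with SH Sham, and this was not tested.

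Among the alpha genes, 4 lie in a cluster on chromosome 2, all on the minus strand. In GRCm38 these are Scn3a at chr2:65457118-65567627, Scn1a at chr2:66270778-66440840, Scn9a at chr2:66480080-66634962 and Scn7a at chr2:66673425-66784914. Scn10a at chr9:119608456-119719322 and Scn11a at chr9:119753759-119825456 are neighbours on the minus strand of chromosome 9. The beta genes Scn2b at chr9:45117782-45130070 and Scn4b at chr9:45138395-45154152 are neighbours on its plus strand. Scn8a stands alone at chr15:100869858-101045938 on the plus strand.

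The sequences before the starts of 4 of these genes are shown because Scn1a, which fell most after SNA, and Scn7a, for which no change was called, are members of the same cluster, with Scn9a between them, while Scn11a lies in the other alpha cluster. Each is the stretch from 250 to 11 bases before the RefSeq start, 240 bases on the strand of the gene (GRCm38.p6), and outside the gene's own GENCODE model. Capitals mark an E-box, CANNTG, or, in Scn7a, also a GC box, GGGCGG, which stands here on the other strand. Scn1a is at chr2:66440848-66441087, Scn7a at chr2:66784921-66785160, Scn9a at chr2:66634973-66635212 and Scn11a at chr9:119825467-119825706, all minus.
Scn1a: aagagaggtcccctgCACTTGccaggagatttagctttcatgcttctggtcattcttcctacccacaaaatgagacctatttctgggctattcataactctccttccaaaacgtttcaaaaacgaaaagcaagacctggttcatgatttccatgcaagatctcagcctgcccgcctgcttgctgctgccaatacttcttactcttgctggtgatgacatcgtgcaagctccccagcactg
Scn7a: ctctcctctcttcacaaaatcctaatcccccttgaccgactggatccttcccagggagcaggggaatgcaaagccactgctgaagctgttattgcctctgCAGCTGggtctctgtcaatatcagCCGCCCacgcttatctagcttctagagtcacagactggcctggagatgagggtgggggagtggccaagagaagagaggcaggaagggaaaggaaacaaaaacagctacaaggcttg
Scn9a: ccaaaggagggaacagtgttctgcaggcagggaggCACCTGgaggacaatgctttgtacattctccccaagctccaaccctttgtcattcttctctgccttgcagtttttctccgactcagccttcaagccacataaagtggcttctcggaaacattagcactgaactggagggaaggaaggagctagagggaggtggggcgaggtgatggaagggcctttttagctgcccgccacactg
Scn11a: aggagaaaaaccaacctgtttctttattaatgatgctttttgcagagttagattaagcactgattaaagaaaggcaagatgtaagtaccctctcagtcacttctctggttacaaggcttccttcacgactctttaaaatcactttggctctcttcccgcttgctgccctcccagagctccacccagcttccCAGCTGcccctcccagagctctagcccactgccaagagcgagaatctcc

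RefSeq windows were found for 8 of the 9 genes, all but Scn3a, and Scn8a has 2. The windows of Scn8a and Scn10a lie wholly inside a GENCODE model of the gene, and are not printed. Those of Scn4b and Scn2b lie inside it with 219 and 84 of their 240 bases and are not printed either. The letters and GC content given for these 4 genes are therefore not all from sequence before the gene. On both strands, none of the 8 genes held the AP-1 letters TGANTCA, the CRE letters TGACGTCA or the TATA letters TATAAA, which 6.58%, 1.44% and 12.1% of 32851 promoters held in the same window. The GC box GGGCGG was in the window of Scn7a alone, starting 126 bases before the start, and in 31.3% of all promoters. An E-box was in Scn1a, Scn7a, Scn8a, Scn9a, Scn11a and Scn2b, and in 65.0% of all promoters. GC content ran from 38.3% in Scn2b, with 1 CpG, to 67.5% in the first Scn8a window, with 29 CpG, against a median of 52.1% over all promoters, and the 22 CpG of Scn4b set it apart from its neighbour Scn2b. A match of letters is a description, and no match says only that these letters are not in this window.

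Levels of different genes can be compared per length, on the scale of FPKM, which divides reads by gene length and library size. In SH Sham, Scn10a had the highest FPKM of the 9 genes, 107 ± 11.9 (SD, n = 3), followed by Scn4b at 89.6 ± 1.58 and Scn7a at 58.1 ± 6.27. Scn11a stood at 51.4 ± 2.63 FPKM, and its samples overlapped with those of Scn7a, so the order of these neighbours is not set. Scn9a followed at 30.8 ± 1.72, Scn8a at 16.4 ± 0.577, Scn1a at 13.2 ± 0.537 and Scn2b at 10.5 ± 0.339 FPKM. All of these neighbours were apart in their SH Sham samples. Scn3a was by far the lowest at 0.348 ± 0.0612 FPKM, from 46 to 124 reads in a library over the whole series, so its counting error is much larger than that of the other 8 genes. The 9 genes kept this order of mean FPKM in the other groups, except that Scn1a came to the level of Scn2b after SNA. In SH SNA, Scn1a had 8.34 to 9.11 FPKM and Scn2b 8.20 to 9.03 FPKM, and in EE + SNA they had 7.75 to 8.98 and 8.12 to 9.74 FPKM, overlapping in both groups.

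**Figure D1:**
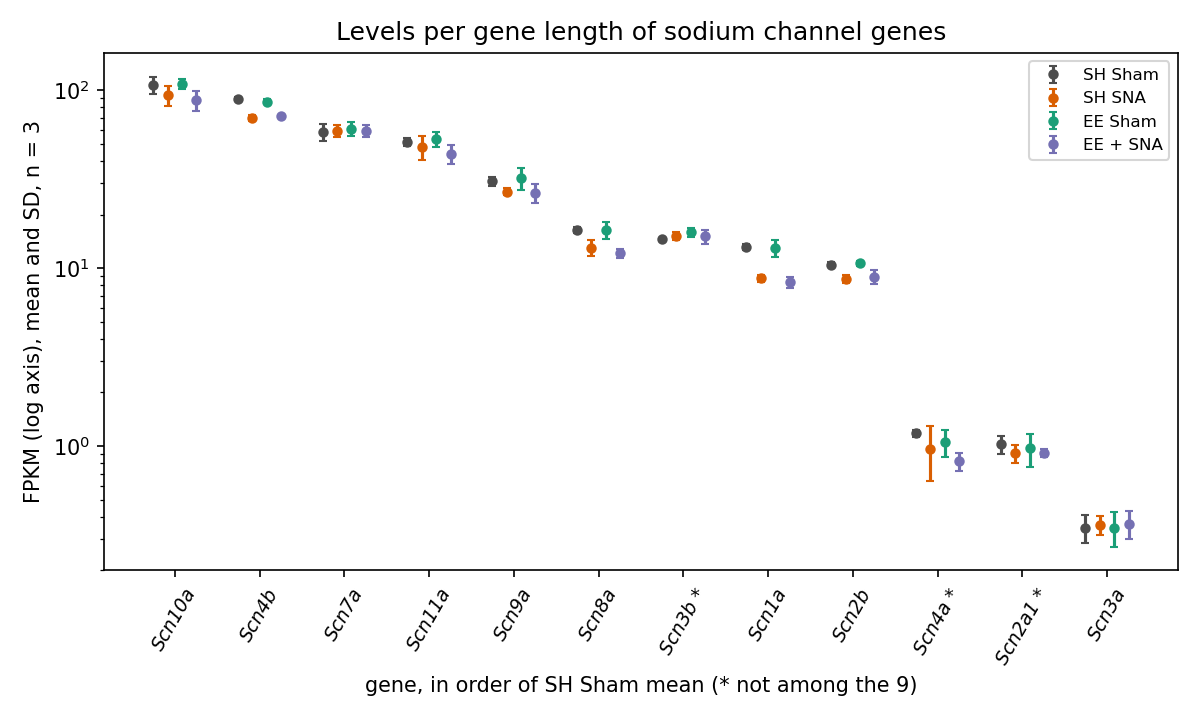
FPKM on a log axis for the 9 genes and, marked with an asterisk, 3 other sodium channel genes, in order of the SH Sham mean; points are group means and bars are the SD of 3 samples. Scn10a at 107 FPKM and Scn3a at 0.348 FPKM are the extremes of the 9 genes in SH Sham.

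With SNA in SH, 4 of the 9 genes fell, and none rose. Scn1a fell most, followed by Scn4b, Scn8a and Scn2b, while Scn3a and Scn7a showed no called change. A gene was called at a Benjamini-Hochberg adjusted P of 0.05 in edgeR's two-sided quasi-likelihood test over 16238 genes, and 5.17% of all genes tested were called lower in this comparison. At an unadjusted P of 0.05, 5 members were lower against 11.8% of all genes, and 5 members were lower in every SH SNA sample than in every SH Sham sample, against 15.1% of all genes. The smallest P that exact permutation of 3 against 3 samples allows is 0.1, so single genes were not tested that way.

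In EE, the comparison of EE + SNA with EE Sham called Scn1a, Scn8a and Scn4b lower, 3 of 9 against 2.33% of all genes, and none higher. At an unadjusted P of 0.05, 7 members were lower against 10.4% of all genes, and 5 had samples apart against 12.3%. Without EE + SNA replicate 3, Scn1a alone was called in EE, and 212 of all 16238 genes were called lower, against 378 with it. EE + SNA against SH Sham shares its samples with these comparisons, and it called the same Scn1a, Scn8a and Scn4b lower, 3 of 9 against 5.63% of all genes. Without EE + SNA replicate 2, it called 6 members, and 858 of all genes were called lower, against 915 with it. With all samples of EE + SNA and SH Sham, 7 members were lower at an unadjusted P of 0.05 against 12.6%, and 7 had samples apart against 15.7%.

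Over both housings, with housing as a covariate and 6 samples against 6, SNA was followed by lower RNA of 6 of the 9 genes, against 11.0% of all genes called lower and 11.4% called higher. These were Scn1a, Scn8a, Scn4b, Scn2b, Scn10a and Scn9a. At an unadjusted P of 0.05, 7 members were lower against 16.6% of all genes, Scn11a being added. Of the 9, Scn1a, Scn8a, Scn4b and Scn2b had all 6 SNA samples below all 6 sham samples, against 5.60% of all genes. The median log2 fold change was −0.24 over the 9 genes and 0.01 over all genes tested.

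**Figure D2:**
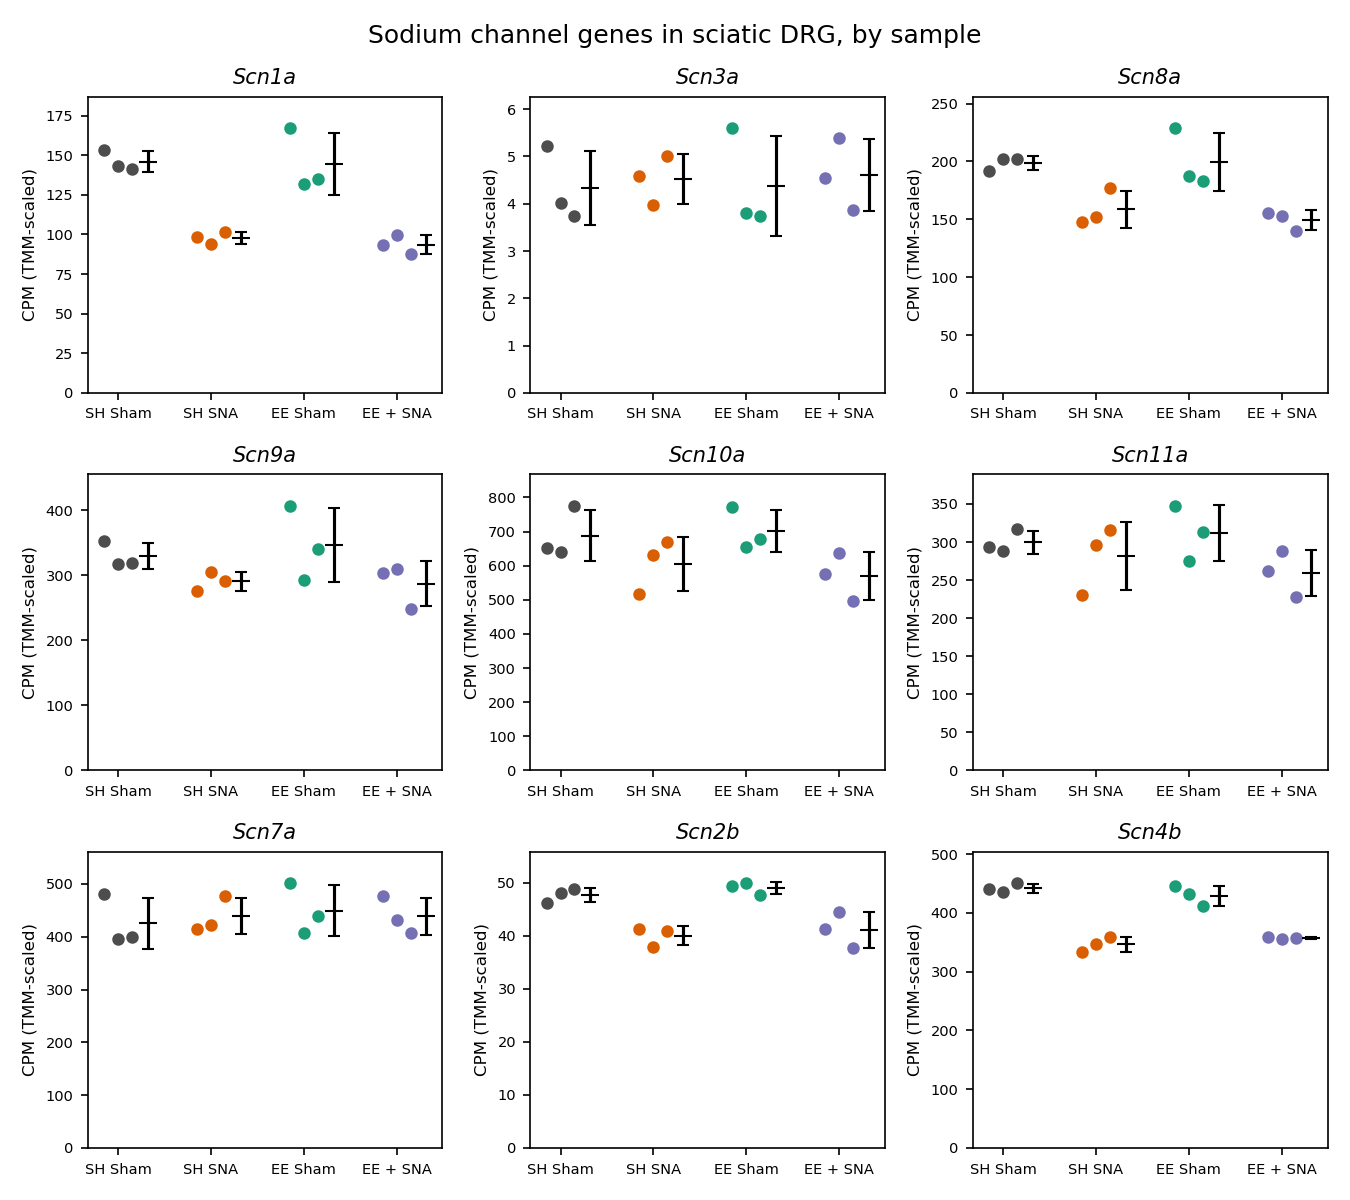
CPM, scaled by trimmed mean of M-values (TMM), of each gene in each of the 12 samples by group, with the group mean and SD (n = 3) to the right of the points and every axis starting at 0. The SNA samples of Scn1a (87.4 to 101 CPM) lie below all sham samples (132 to 167 CPM), while those of Scn7a lie among them.

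Scn1a encodes the tetrodotoxin-sensitive alpha subunit Nav1.1, which in DRG is found mainly in larger neurons with myelinated axons. Its level was 154, 143 and 141 CPM in the SH Sham samples and 98.4, 93.7 and 101 CPM in the SH SNA samples. EE Sham samples had 167, 132 and 135 CPM, and EE + SNA samples had 93.6, 99.5 and 87.4 CPM. No SNA sample reached the lowest sham sample in either housing. The log2 fold change was −0.57 in SH (SE 0.057, adjusted P = 5.39e-05) and −0.63 in EE (SE 0.091, adjusted P = 0.00242), and over both housings it was −0.60 (SE 0.056, adjusted P = 5.97e-07), a level 34.1% lower. EE + SNA against SH Sham gave −0.64 (SE 0.067, adjusted P = 9.68e-05). The call held with every single sample left out, in all 4 comparisons of SNA with sham surgery.

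Because reads of 2 genes in the same library need no scaling, the reads of Scn1a were also set against those of each other member. Scn1a reads were 0.700 to 0.802 of Scn8a reads in sham samples and 0.573 to 0.666 in SNA samples. The ratio to Scn7a reads went from between 0.307 and 0.361 to between 0.196 and 0.237. For 7 of the 8 other members, the ratio was lower in all 6 SNA samples than in all 6 sham samples, the exception being Scn10a. These ratios were formed after the fall of Scn1a was seen, and they are given as a description. As a share of the summed FPKM of the 7 alpha genes, Scn1a made up 4.37 to 4.95% in sham samples and 3.30 to 3.97% in SNA samples.

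Scn8a encodes Nav1.6, the tetrodotoxin-sensitive alpha subunit of mature nodes of Ranvier. It stood at 192, 202 and 202 CPM in SH Sham and at 148, 152 and 177 CPM in SH SNA. It stood at 229, 187 and 183 CPM in EE Sham and at 155, 153 and 140 CPM in EE + SNA. The SNA samples lay below the sham samples in both housings, with 1 SH SNA sample near the lowest EE Sham sample. In SH its log2 fold change was −0.32 (SE 0.069, adjusted P = 0.00987), and in EE it was −0.42 (SE 0.087, adjusted P = 0.0162). It was −0.37 over both housings (SE 0.059, adjusted P = 0.000201), or 22.6% lower, and −0.41 for EE + SNA against SH Sham (SE 0.062, adjusted P = 0.00120). In EE the call was lost without EE + SNA replicate 3, where the adjusted P was 0.0504.

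Scn9a encodes Nav1.7, a tetrodotoxin-sensitive alpha subunit of pain-sensing and other DRG neurons that amplifies small depolarisations. Its SH Sham samples had 353, 317 and 319 CPM, and its SH SNA samples had 275, 305 and 291 CPM. Its EE Sham samples had 407, 293 and 340 CPM, and its EE + SNA samples had 304, 310 and 248 CPM. The groups were apart in SH and overlapped in EE, where 1 EE Sham sample was below 2 EE + SNA samples. Its log2 fold change was −0.18 in SH (SE 0.062, adjusted P = 0.0857) and −0.28 in EE (SE 0.113, adjusted P = 0.193), neither called. EE + SNA against SH Sham gave −0.20 (SE 0.084, adjusted P = 0.144). With both housings it was called, at −0.23 (SE 0.071, adjusted P = 0.0292). That call was lost without any 1 of 5 samples, SH Sham replicate 1, SH SNA replicate 1, EE Sham replicate 1 or 3, or EE + SNA replicate 3, with adjusted P from 0.0510 to 0.0630. An antisense gene, Gm13629, shares 180 exon bases with Scn9a on the other strand, 1.41% of its exon bases, and had 95 to 230 reads a library, against at least 3077 for Scn9a, and the strand setting of the counting is not given in the sources used here.

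Scn3a encodes Nav1.3, an alpha subunit of embryonic neurons that adult rodent DRG neurons hold at a low level. Its SH Sham samples had 5.22, 4.02 and 3.74 CPM and its SH SNA samples 4.59, 3.97 and 5.01 CPM. EE Sham samples had 5.59, 3.79 and 3.74 CPM, and EE + SNA samples had 4.54, 5.40 and 3.87 CPM. The groups overlapped in each comparison. Over both housings the log2 fold change was 0.08, with a 95% confidence interval (CI) from −0.20 to 0.36 and an adjusted P of 0.714. It was 0.06 in SH (adjusted P = 0.873), 0.10 in EE (adjusted P = 0.832) and 0.10 for EE + SNA against SH Sham (adjusted P = 0.774). The interval is the widest of the 9 genes. Over both housings it does not reach the point estimates of Scn1a, Scn8a, Scn4b, Scn2b, Scn10a or Scn9a. Changes inside the interval were not detectable at this depth.

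The tetrodotoxin-resistant alpha subunits are products of Scn10a and Scn11a. Scn10a encodes Nav1.8, which carries most of the action potential current of many nociceptors. Its level was 650, 639 and 775 CPM in SH Sham and 516, 630 and 668 CPM in SH SNA. It was 772, 654 and 678 CPM in EE Sham and 576, 638 and 495 CPM in EE + SNA. The groups overlapped in SH, through 1 SH SNA sample above 2 SH Sham samples, and were apart in EE. The log2 fold change was −0.18 in SH (SE 0.096, adjusted P = 0.261) and −0.30 in EE (SE 0.093, adjusted P = 0.0853), neither called. EE + SNA against SH Sham gave −0.27 (SE 0.094, adjusted P = 0.0784). Over both housings Scn10a was called at −0.24 (SE 0.074, adjusted P = 0.0259), and the call was lost without SH Sham replicate 3, SH SNA replicate 1, EE Sham replicate 1 or EE + SNA replicate 3, with adjusted P from 0.0544 to 0.0724. In EE it was called in 3 of the 8 other settings that kept all samples. DESeq2 (adjusted P = 0.0201) and the likelihood ratio test (adjusted P = 0.0408) were among them. Without EE + SNA replicate 2 it was called in EE as well (adjusted P = 0.0406). In EE + SNA against SH Sham, 3 of the 8 other settings and 1 of the 6 fits that left out a sample called it.

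Scn11a encodes Nav1.9, a slow, persistent current near the resting potential of nociceptors. SH Sham samples had 294, 289 and 317 CPM, and SH SNA samples had 231, 297 and 316 CPM. EE Sham samples had 348, 275 and 313 CPM, and EE + SNA samples had 262, 288 and 228 CPM. Only 1 SH SNA sample was below the SH Sham samples, and the groups overlapped in both housings. Scn11a had a log2 fold change of −0.09 in SH (SE 0.094, adjusted P = 0.605), −0.27 in EE (SE 0.097, adjusted P = 0.138) and −0.21 for EE + SNA against SH Sham (SE 0.079, adjusted P = 0.109). Over both housings it was −0.18 (SE 0.077, adjusted P = 0.108), short of the threshold. It passed without SH SNA replicate 3 (adjusted P = 0.0401) and in 1 of the 7 other settings that kept all samples. In SH, leaving out SH SNA replicate 1 turned the value to 0.03.

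The summed FPKM of Scn10a and Scn11a was 2.41 to 2.95 times that of Scn1a, Scn3a, Scn8a and Scn9a in sham samples and 2.55 to 3.09 times in SNA samples. The ranges of this ratio overlapped between the surgeries. The sensitive sum alone was apart, at 55.6 to 70.2 FPKM in sham samples and 42.1 to 51.1 in SNA samples. The resistant sum overlapped, at 150 to 176 and 114 to 158 FPKM.

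Scn7a encodes Nax, a channel that takes part in sensing sodium concentration and opens poorly to voltage. Its SH Sham samples had 482, 396 and 399 CPM, and its SH SNA samples had 415, 423 and 478 CPM. Its EE Sham samples had 501, 407 and 439 CPM, and its EE + SNA samples had 477, 432 and 407 CPM. Samples with and without SNA lay within each other's range. Scn7a had a log2 fold change of 0.00 over both housings, with a 95% CI from −0.13 to 0.14 and an adjusted P of 0.978. It was 0.04 in SH (adjusted P = 0.794), −0.04 in EE (adjusted P = 0.827) and 0.04 for EE + SNA against SH Sham (adjusted P = 0.808). That interval holds none of the point estimates of the 6 genes called over both housings. Scn7a made up 18.8 to 23.4% of summed alpha FPKM in sham samples and 22.5 to 26.0% in SNA samples, with overlap.

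The beta genes Scn2b and Scn4b encode single-pass subunits that join an alpha subunit through a disulfide bond. Scn4b, whose product has a tail that can block open channels and give a resurgent current, had 441, 435 and 450 CPM in SH Sham and 333, 348 and 358 CPM in SH SNA. It had 445, 431 and 411 CPM in EE Sham and 359, 356 and 357 CPM in EE + SNA. All SNA samples were below all sham samples, and the EE + SNA samples lay close together. Its log2 fold change was −0.35 in SH (SE 0.053, adjusted P = 0.00112) and −0.27 in EE (SE 0.059, adjusted P = 0.0229). EE + SNA against SH Sham gave −0.31 (SE 0.053, adjusted P = 0.00281). Over both housings it was −0.31 (SE 0.037, adjusted P = 1.13e-05), or 19.2% lower. In EE the call was lost in 5 of the 6 fits that left out a sample, all but the one without EE Sham replicate 2, with adjusted P from 0.0561 to 0.1004.

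Scn2b, the beta gene with the lower level per length, had 46.3, 48.1 and 48.9 CPM in SH Sham and 41.4, 37.9 and 40.9 CPM in SH SNA. It had 49.4, 49.9 and 47.7 CPM in EE Sham and 41.4, 44.5 and 37.7 CPM in EE + SNA. All SNA samples were again below all sham samples, although the gap between the arms was under 2 CPM. The log2 fold change was −0.25 in SH (SE 0.067, adjusted P = 0.0308) and −0.25 in EE (SE 0.077, adjusted P = 0.0854), called in SH alone, without a called difference between the housings. EE + SNA against SH Sham gave −0.21 (SE 0.072, adjusted P = 0.0817). Over both housings it was −0.25 (SE 0.046, adjusted P = 0.000845), or 15.8% lower, and this call held with every sample left out. The call in SH was lost without each of the SH SNA samples in turn and without SH Sham replicate 2 or 3, with adjusted P from 0.0562 to 0.106, and with scaling to general neuron genes, at 0.0723.

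**Figure D3:**
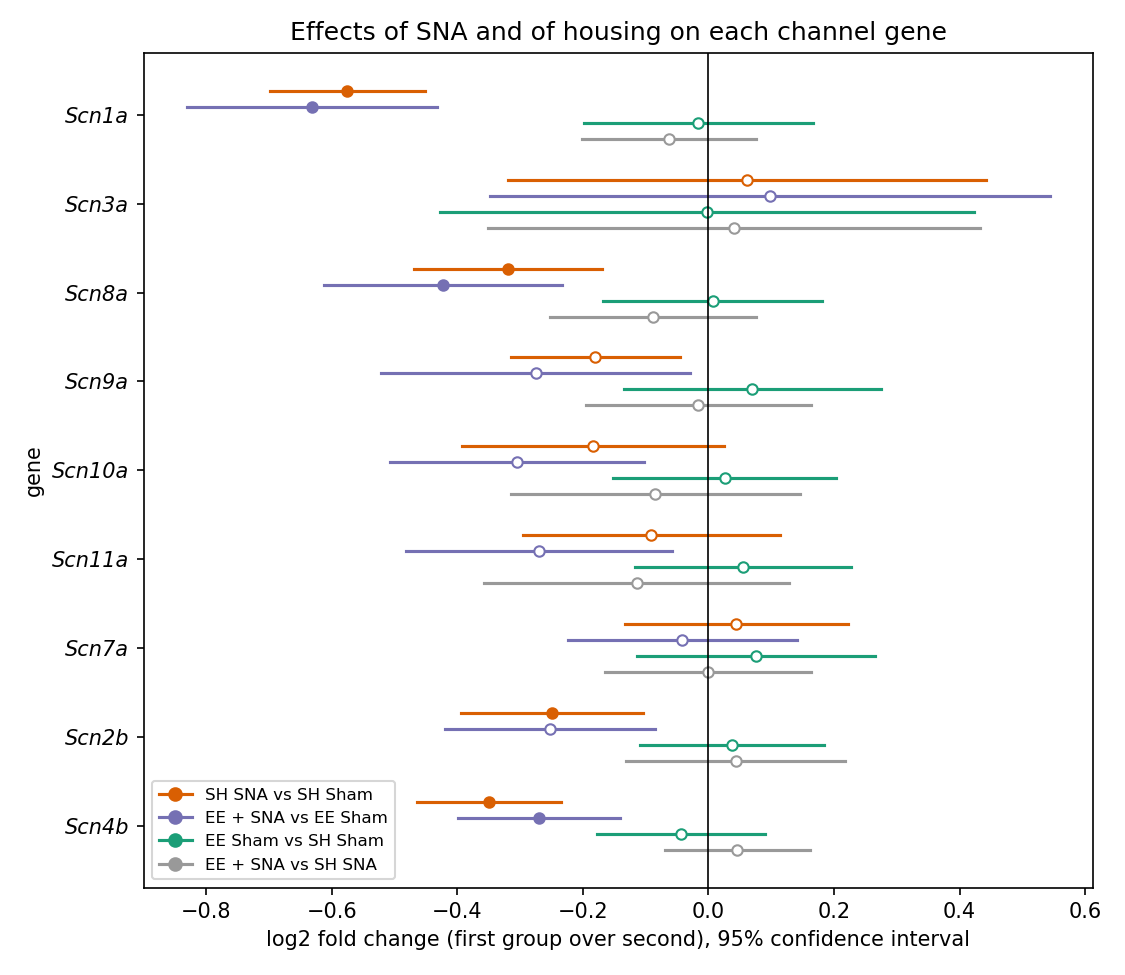
Log2 fold change with its 95% CI for each of the 9 genes, for SNA in each housing and for EE in each surgery; filled points passed an adjusted P of 0.05. Scn1a is at −0.57 and −0.63 for SNA, and no point of the housing comparisons is filled.

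Housing was compared within each surgery to ask whether EE alone, or EE before injury, moved these genes. In the fit without pairing, no member was called between EE Sham and SH Sham by edgeR, at an adjusted P (0.00616% of all genes called) or at an unadjusted P of 0.05 (2.97% of all genes). Scn7a had the smallest P there, 0.407, with a log2 fold change of 0.08 (95% CI −0.11 to 0.26). With Scn3a left aside for its low counts, the CIs of the other 8 genes ran from −0.20 to 0.27 at their widest. No member was called between EE + SNA and SH SNA either, at an adjusted P (0% of all genes) or an unadjusted P (4.10% of all genes). Scn8a had the smallest P, 0.264, with −0.09 (95% CI −0.25 to 0.08), and the CIs of the 8 genes ran from −0.36 to 0.22. DESeq2, the likelihood ratio test and limma on FPKM called 0 members in these comparisons as well.

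Whether SNA acted differently in EE and SH was tested by the interaction of housing and surgery over all 12 samples. No member passed, at an adjusted P (0% of all genes) or at an unadjusted P (2.61% of all genes). The smallest P was that of Scn4b, 0.257, with a difference of 0.09 on the log2 scale (95% CI −0.07 to 0.25). The CIs of the 8 genes other than Scn3a ran from −0.50 to 0.25 at their widest, so a difference between housings as large as some of the SNA effects above was not detectable with these samples. DESeq2, the likelihood ratio test and limma on FPKM also called 0.

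Of the other sodium channel genes, 3 were given the same test over both housings, and 0 of 3 were called by edgeR. At an unadjusted P, 1 of them was lower, Scn4a, and DESeq2, the likelihood ratio test and limma on FPKM called 0 as well. Scn3b, a beta gene whose product binds alpha subunits without a disulfide bond, had a log2 fold change of 0.01 (adjusted P = 0.948). Scn2a1, an alpha gene of the brain, had −0.11 (adjusted P = 0.481). Scn4a, the alpha gene of skeletal muscle, had −0.31 (adjusted P = 0.103). Without the filter on low counts, or without SH SNA replicate 2, 1 of the 3 was called lower. In EE + SNA against SH Sham, Scn4a was called lower at −0.50 (adjusted P = 0.0299), with all EE + SNA samples below all SH Sham samples.

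Fibroblast growth factor homologous factors bind the tails of alpha subunits and shift their inactivation. Of 4 measured, Fgf12 and Fgf13 fell after SNA over both housings, by 0.22 (adjusted P = 0.00649) and 0.14 (adjusted P = 0.0446) on the log2 scale. Fgf11 rose by 0.23 (adjusted P = 0.0243). Fgf14, with only 14 to 46 reads a library, was at −0.43 and was not called (adjusted P = 0.122). Of 10 genes of the node of Ranvier and its anchors, 3 fell and 1 rose. Of all genes, 11.0% were called lower and 11.4% higher over both housings. The 3 encode proteins of the junction between axon and myelin beside the node, or of the potassium channel complex next to it. Cntnap2 fell by 0.34 (adjusted P = 3.38e-05), Cntn1 by 0.30 (adjusted P = 0.000199) and Cntnap1 by 0.26 (adjusted P = 0.000670), while Gldn, which encodes the glial protein gliomedin of the node, rose by 0.30 (adjusted P = 0.0184). Ank3, for ankyrin-G that holds the channels at the node, was at −0.01 (adjusted P = 0.942).

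Of 8 genes for proteins that bind, traffic or modify sodium channels, 2 fell and 1 rose, beside 11.0% and 11.4% of all genes. Camk2b, a kinase subunit, fell by 0.30 (adjusted P = 0.000557), and Magi1, a scaffold, fell by 0.16 (adjusted P = 0.0347). S100a10, whose product p11 brings Nav1.8 to the membrane, rose by 0.29 (adjusted P = 0.000315). The median log2 fold change was −0.18 over the homologous factors, −0.13 over the node genes and −0.13 over the regulators, beside 0.01 over all genes.

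**Figure D4:**
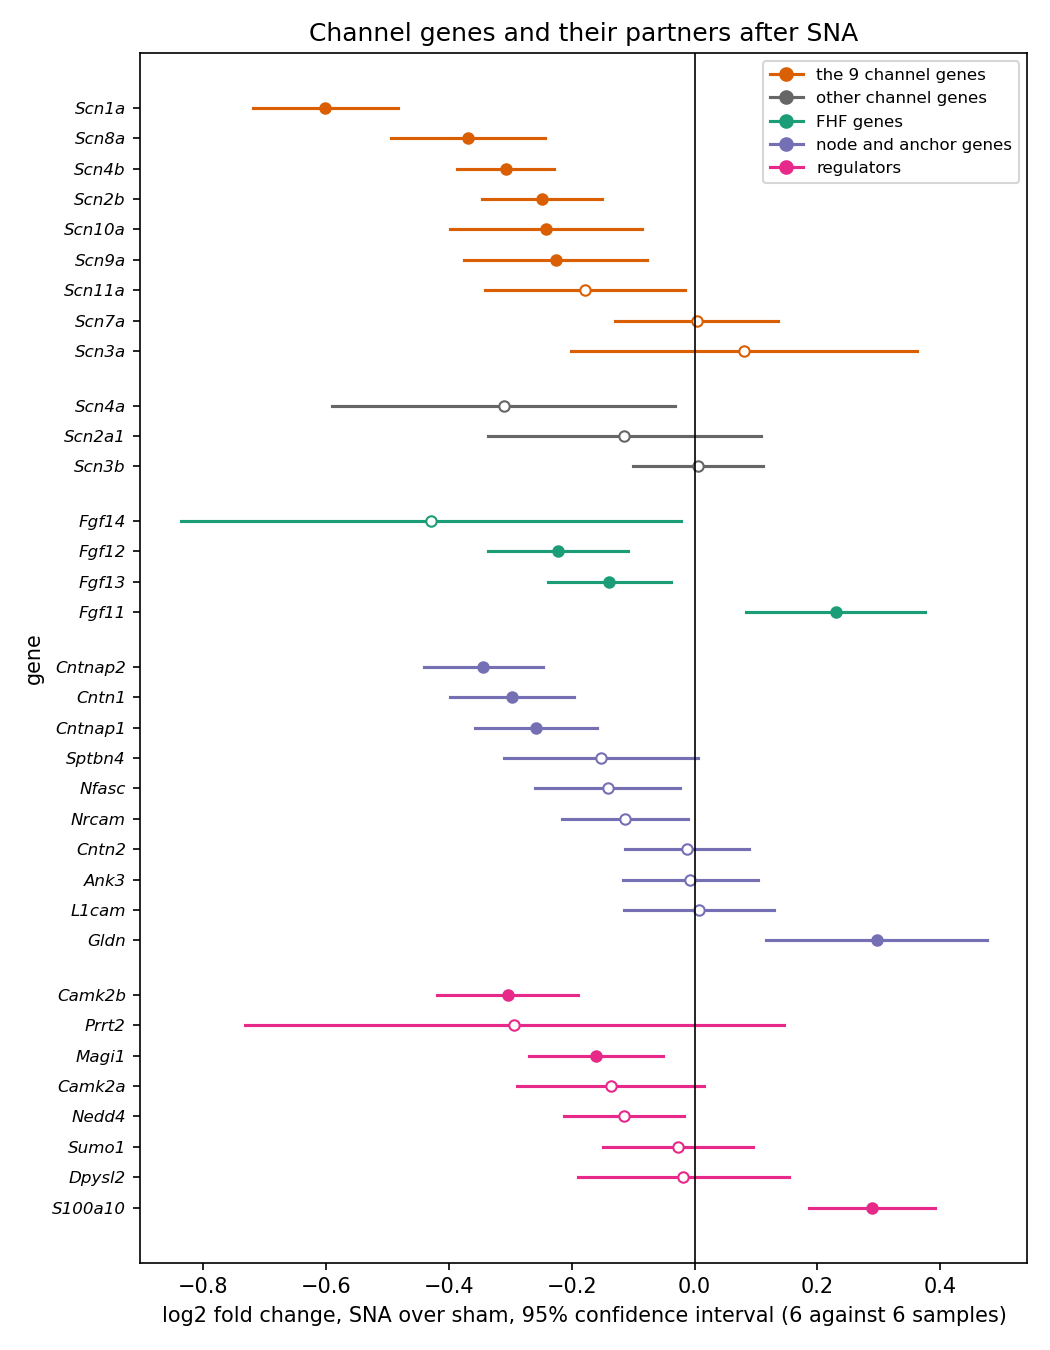
Log2 fold change of SNA over sham surgery over both housings with its 95% CI, for the 9 genes, 3 other sodium channel genes, fibroblast growth factor homologous factor (FHF) genes, node and anchor genes, and regulators; filled points passed an adjusted P of 0.05. Scn1a at −0.60 is the lowest of the genes shown, and Gldn at 0.30 the highest.

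Markers of the cells in the ganglion moved with surgery too, and their part in the results was not tested. The counts of markers called are over both housings, where 11.0% of all genes were called lower and 11.4% higher. The summed CPM of 13 general sensory neuron genes was 11341 to 12008 in sham samples and 11384 to 12049 in SNA samples, so this sum overlapped, with 4 of its genes called lower and 2 higher. Per 1000 reads of those 13 genes, Scn1a had 11.6 to 14.2 reads in sham samples and 7.43 to 8.83 in SNA samples, Scn8a had 15.9 to 19.4 and 11.9 to 15.4, and Scn4b had 35.8 to 38.0 and 28.8 to 31.3. On that scale Scn1a, Scn8a and Scn4b were apart between the surgeries, and Scn2b, at 3.88 to 4.40 and 3.15 to 3.91, was not. The same 6 genes were called over both housings when libraries were scaled to the 13 genes.

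Of 11 genes of large, myelinated sensory neurons, the neurofilament genes Nefh, Nefm and Nefl among them, 6 were lower and 1 higher after SNA, with a median log2 fold change of −0.17. Their summed CPM was 14017 to 15069 in SH Sham, 12185 to 12880 in SH SNA, 12939.5 to 13704 in EE Sham and 11674 to 13030.0 in EE + SNA. Of 10 genes of non-peptidergic nociceptors 3 were lower and 1 higher, and of 6 of peptidergic ones 1 was higher, with summed CPM of 1543 to 1827 in sham and 1490 to 1798 in SNA samples, and of 2247 to 2444 and 2439 to 2746. Of 10 glial genes 6 were higher, and their summed CPM was 8771 to 11635 in sham and 10388 to 14799 in SNA samples. Of 7 macrophage genes 4 were higher, with summed CPM of 43.2 to 50.6 and 52.0 to 80.0. Neutrophil, red cell, endothelial and fibroblast genes had 1 of 4, 1 of 3, 1 of 5 and 2 of 5 higher, and muscle 0 of 6 in edgeR (5 at an unadjusted P, and 0 called by DESeq2, the likelihood ratio test and limma on FPKM, but 6 called higher without the filter on low counts, 5 without EE Sham replicate 2 and 1 without SH SNA replicate 3). Summed CPM overlapped between the surgeries for these lists (neutrophil 56.4 to 177 and 96.9 to 580, red cell 111 to 307 and 175 to 595, endothelial 62.2 to 88.1 and 77.0 to 95.01, fibroblast 607 to 705 and 617 to 960). Muscle genes ran from 3.05 to 151 CPM in all libraries but SH SNA replicate 2, which had 883, and no gene of these lists was at 0 in any library. EE + SNA replicate 3, in which all 9 genes but Scn4b were at the lowest CPM of their group, had the highest summed CPM of glial (14799), macrophage (80.0) and neutrophil (580) genes. Without it, 4 of the 9 genes were called over both housings, Scn1a, Scn8a, Scn4b and Scn2b, and 1613 of all 16238 genes were called lower. The same 4 were called without SH SNA replicate 1 and without EE Sham replicate 1, with 1465 and 1573 of all genes called lower. Without SH SNA replicate 2, Scn1a, Scn8a and Scn4b were still called in SH, and 694 of all genes were called lower.

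The genes whose log2 CPM followed each member most closely over the 12 samples were also named, from 15343 genes of at least 1 CPM, as a description, since the samples share groups and depth. Scn1a went with Creg2 and Fam196b (Pearson r of 0.989 and 0.988), Scn8a with Atp2b2 and Ksr2 (0.983 and 0.981), and Scn4b with Nat8l and Kndc1 (0.989 and 0.986). Scn2b went with AF529169 and 2900008C10Rik (0.983 and 0.962). Scn9a went with Lin7a and Tenm1 (0.974 and 0.958), Scn10a with Casz1 and Adora1 (0.973 and 0.972), and Scn11a with Unc13a and St6galnac5 (0.953 and 0.953). The highest values were lower for Scn7a, with Zfp738 and Zfp788 (0.910 and 0.874), and for Scn3a, with Nktr and Slc35e2 (0.873 and 0.857). No member was the closest gene of another member, though r between members ran from −0.101 (Scn3a and Scn4b) to 0.950 (Scn10a and Scn11a).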

How the data were processed

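RNA of 12 whole DRG samples was sequenced with TruSeq mRNA libraries on an Illumina HiSeq, in pairs of reads. The authors aligned reads to mm10 with TopHat 2.0.12 and Bowtie2 2.2.3, used SAMtools 0.1.19, and deposited whole-number counts per gene name from HTSeq (0.6.0 per the labels). The strand setting is not given in the sources used here. The deposited FPKM were computed by the authors. How they set gene length is not given in the sources used here. Reads without a feature (46.7 to 47.6% of all reads listed), ambiguous reads (0.314 to 0.370%) and reads with several alignments (8.49 to 9.28%) stayed out of the counts. Alpha genes resemble each other in sequence, and how many of their reads were left out in this way was not tested.

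The counts were passed to edgeR 4.0.16 (R 4.3.3), scaled by trimmed mean of M-values (TMM), filtered with filterByExpr (minimum count 10, minimum total 15) and tested with the two-sided quasi-likelihood F test. Each pair of groups was fitted on its 6 samples. The interaction, and SNA with housing as covariate, were fitted on all 12. P-values were adjusted by Benjamini-Hochberg over 16238 genes and called at 0.05. CPM are TMM-scaled. The members and gene lists were chosen with earlier results of these data known, so no count over them is independent evidence. Named outside the members were 3 other sodium channel genes, the partner genes called over both housings (up to 6 a list), the 2 genes most correlated with each member, and Atf3. Some genes of the lists are not reported here, and counts over the lists are without them. Fgf14 and Ank3 were named after their values were seen, and Gm13629 for its overlap with Scn9a. Nefh, Nefm and Nefl were named as examples of their list. Spp1, Pvalb, Piezo2, Ntrk2 and Ntrk3 were named as the genes of that list that were not called lower. Replicates are pools of separate mice, and pairs of replicates differed by 3.87 to 8.53 times sampling noise (chi-square per degree of freedom).

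Alternatives were library size scaling, scaling to 13 general sensory neuron genes, no filter, the likelihood ratio test, DESeq2 1.42.0, limma 3.58.1 on log2(FPKM + 1), a replicate block, all 12 samples in a fit, and each sample left out. Replicate numbers were treated as a possible pairing only between EE Sham and SH Sham. The values given above for that comparison are from the fit without pairing. Between those 2 groups, deviations from group means had r from 0.111 to 0.331 for the same number. The range overlapped with that of other numbers, −0.332 to 0.194. EE + SNA and SH SNA were not taken as paired. For them r was 0.0573 to 0.126 for the same number and −0.123 to 0.0403 for other numbers. These 2 ranges did not overlap, so the correlations do not explain why only EE Sham and SH Sham were paired. The pairing of EE Sham with SH Sham rests on these weak correlations alone, since no source describes it. The test was checked on simulated counts. Gene positions are from GENCODE for GRCm38 and promoter windows from RefSeq. Figures were drawn in Matplotlib 3.10.9.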

Additional observations from a re-analysis of the deposited data

How the results depend on the processing

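Counts of members called kept within 1.5 times the reported count in 104 of 108 alternatives. Without the filter on low counts, 6 members instead of 3 were called in EE + SNA against EE Sham and 7 instead of 3 in EE + SNA against SH Sham, and the cause was not tested. Calls over all genes rose as well, from 785 of 16238 to 1694 of 26122 and from 2031 to 2849. With a sample left out, the counts ran from 1 to 3 in EE + SNA against EE Sham (1 without EE + SNA replicate 3), from 3 to 6 in EE + SNA against SH Sham (6 without EE + SNA replicate 2), from 3 to 4 in SH SNA against SH Sham and from 4 to 7 over both housings. Of all 16238 genes, 163 to 510, 519 to 858, 524 to 696 and 1465 to 1828 were called lower in these fits, in the same order. With the replicate block, 4, 3, 3 and 6 members were called in the comparisons of SNA with sham surgery (SH, EE, EE + SNA against SH Sham, both housings). Over all genes, 917, 433, 652 and 1921 were called lower there. With the block, EE Sham against SH Sham called 0 members and 29 of all genes, against 1 gene without it. EE + SNA against SH SNA called 0 of all genes with or without it. The block changed no count of members. Of 596 log2 fold changes under an alternative, 41 kept their sign and crossed the threshold in either direction, and 23 changed sign, all of them of genes that were not called. Scn7a over both housings (0.00) was −0.00607 by library size, −0.00141 without the filter, −0.00436 on FPKM, and −0.0303 to 0.0400 with a sample left out. With a sample left out, Scn7a ran from −0.0265 to 0.14 in SH SNA against SH Sham, from −0.11 to 0.0382 in EE + SNA against EE Sham, from −0.0310 to 0.13 in EE + SNA against SH Sham and from −0.00413 to 0.17 in EE Sham against SH Sham. Scn3a ran from −0.0359 to 0.22, from −0.0665 to 0.30 and from −0.0542 to 0.26 in the first 3 of these, and Scn11a from −0.19 to 0.0328 in SH SNA against SH Sham. The calls of Scn1a, Scn8a, Scn4b and Scn2b over both housings held in all 7 other settings and all 12 fits without a sample. In EE + SNA against EE Sham, Scn8a missed the threshold on FPKM (adjusted P = 0.0512). Depth limits Scn3a most, with 46 to 124 reads a library.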
